A study of Mus musculus with 11 samples.

Results

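The CXCR3 ligands and receptor, together with the CXCL16 and CXCR6 pair, were followed across 4 groups of whole mouse skin by bulk RNA-seq. The 6 genes (Cxcl9, Cxcl10, Cxcl11, Cxcl16, Cxcr3 and Cxcr6) were chosen by name from the 49315 genes of the count table, and all 6 were among the 18375 genes that passed the filter on low counts. Cxcl11 passed through the libraries labelled FullDT alone, since its largest count outside them was 7, and Cxcr3 reached the filter level in 1 library of each other group and in 3 labelled FullDT.

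CXCL9, CXCL10 and CXCL11 are chemokines that interferon-gamma and, to different degrees, type I interferon and TNF induce in myeloid, endothelial, stromal and epithelial cells, and they attract activated T cells and NK cells through their shared receptor CXCR3. CXCL16 is made as a membrane protein that ADAM10 and ADAM17 can release, and its receptor CXCR6 is found on activated and tissue-resident T cells and on NK and NKT cells. In inflamed skin the CXCR3 axis is known for drawing effector lymphocytes towards the epidermis.

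All 11 libraries came from the skin of Foxp3-DTR mice, in which the Foxp3 promoter drives the diphtheria toxin receptor so that diphtheria toxin (DT) removes regulatory T cells (Tregs), and each library is 1 mouse. The comparisons ask how these genes differ between windows of Treg loss in neonatal skin. Mice labelled EarlyDT (n = 3) received 2 doses of DT, on postnatal days 6 and 8, and skin was taken on day 9. Mice labelled LateDT (n = 3) received 2 doses, on days 10 and 12, and mice labelled FullDT (n = 3) received 4 doses from day 6 to day 12, with skin taken on day 13 in both groups. The dose was 30 ng per g body weight for EarlyDT and FullDT, and that for LateDT is not given in the sources used here. FullDT differs from the other DT groups in the number of doses and the length of treatment as well as its timing, and these cannot be told apart. Controls labelled PBS (n = 2) carried the same genotype and received vehicle. The paper describes its comparisons with controls as age-matched, on day 9 for EarlyDT and day 13 for LateDT. Which of these days each PBS library belongs to is not given in the sources used here. Each comparison with PBS here used the PBS libraries together, so age and treatment cannot be told apart in it. Age also differs between EarlyDT and the other DT groups, while FullDT and LateDT share it. Total counts ran from 23377571 to 34159435 per library.

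Foxp3, the transcription factor of the targeted cells, was counted 20 and 14 times in the libraries labelled PBS, 10, 16 and 11 times in EarlyDT, 23, 13 and 13 times in LateDT, and 9, 19 and 18 times in FullDT. In CPM (counts scaled to the effective library size) Foxp3 stood at 0.70 and 0.56 in PBS and below both in EarlyDT, at 0.35, 0.53 and 0.47, while LateDT and FullDT overlapped PBS. The group names below stand for the labels; the number of Tregs was not measured in these libraries. The log2 fold change was -0.49 (SE 0.323) for EarlyDT against PBS and -0.23 (SE 0.311) for LateDT against PBS, with adjusted p of 1 and 0.738, and -0.31 (SE 0.314) for FullDT against PBS, with a 95% interval of -0.995 to 0.386 and an adjusted p of 0.546 (edgeR quasi-likelihood test, Benjamini-Hochberg over all genes tested, as for all adjusted p below). Skin markers matched the tissue label. The 7 keratinocyte markers summed to between 8737 and 11450 CPM and were led by Krt5, and the 6 fibroblast markers summed to between 8358 and 24170 CPM and were led by Col1a1.

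Each of the 6 genes had a higher level in every library labelled FullDT than in any other library. A gene that reached the filter level in fewer than 2 libraries outside FullDT passed the filter through FullDT alone. Its level in FullDT thus decided whether it was tested. Such genes were 2.35% of those tested, Cxcl11 among them. In comparisons with FullDT they are left out of the counts and medians given below for the 6 genes and each gene list. The other 5 genes were called higher in FullDT than in PBS, in LateDT and in EarlyDT. Against PBS, 12.1% of all genes tested were called higher in FullDT at an adjusted p under 0.05 and 9.39% lower. Against LateDT, 10.7% were called higher and 6.11% lower, and against EarlyDT 13.2% higher and 9.81% lower. These shares are of all genes tested, and without the genes that passed through FullDT alone the shares called higher were 11.4%, 10% and 12.4%. The median log2 fold change of the 5 genes was 3.29 against PBS, 3.49 against LateDT and 3.78 against EarlyDT, beside medians of -0.013, -0.010 and -0.008 over the 17944 genes left on the same terms. These comparisons share the FullDT libraries.

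**Figure D1:**
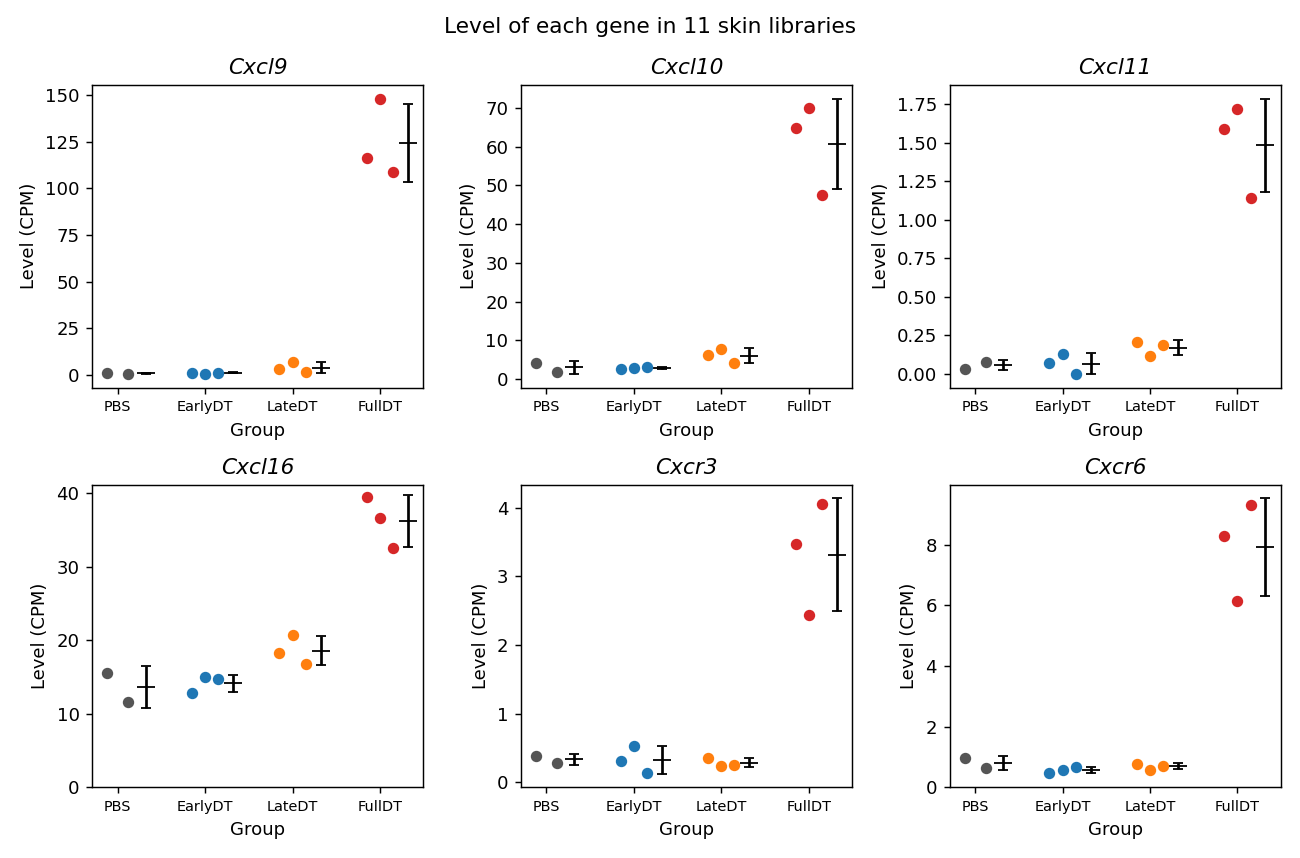
Level of each gene in CPM (vertical axes, linear, a scale of its own for each gene) in the 11 libraries by group (horizontal axes). Each point is 1 mouse, and the bar with whiskers beside it is the group mean ± SD (n = 2 for PBS and 3 for each DT group); the FullDT points lie above all other points for every gene.

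Cxcl9 was counted 31 and 17 times in the libraries labelled PBS and 36, 24 and 30 times in EarlyDT. It was counted 106, 182 and 57 times in LateDT and 2710, 4989 and 3521 times in FullDT. Every FullDT library was far above all others, LateDT lay above PBS and EarlyDT without overlap, and LateDT replicate 2 was the highest of its group. The mean level was 0.88 ± 0.289 CPM in PBS (SD, n = 2), 1.11 ± 0.278 CPM in EarlyDT, 4.03 ± 2.78 CPM in LateDT and 124 ± 20.8 CPM in FullDT (n = 3 each). The log2 fold change was 7.12 (SE 0.51) for FullDT against PBS, with an adjusted p of 7.57e-06, and 4.99 (SE 0.352) against LateDT of the same age, with an adjusted p of 7e-06. Against EarlyDT it was 6.82 (SE 0.413), with an adjusted p of 1.44e-06. Over 13 alternatives the estimate against LateDT ranged from 4.637 to 5.641.

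Cxcl10 was counted 120 and 46 times in the libraries labelled PBS and 73, 87 and 72 times in EarlyDT. The counts were 205, 201 and 134 in LateDT and 1509, 2354 and 1541 in FullDT. FullDT stood above all other libraries. LateDT overlapped PBS only through PBS replicate 1 (4.20 CPM), whose level was close to that of LateDT replicate 3 (4.20 CPM) and above that of PBS replicate 2 (1.83 CPM). FullDT exceeded PBS by a log2 fold change of 4.31 (SE 0.333, adjusted p 1.16e-05) and LateDT by 3.33 (SE 0.259, adjusted p 1.3e-05). Over 12 alternatives the estimate against PBS ranged from 3.845 to 5.045. Of the exon bases of Cxcl10, 5.91% are shared with Art3 on the other strand, and whether counting used strand is not given in the sources used here, so reads there cannot be assigned to 1 of them.

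Cxcl11 was counted 1 and 2 times in the libraries labelled PBS, 2, 4 and 0 times in EarlyDT, 7, 3 and 6 times in LateDT, and 37, 58 and 37 times in FullDT. FullDT lay above all others, and outside it Cxcl11 was at or near the lower limit of what this depth detects. The ratio of summed counts, scaled to effective library size, was 26.4 for FullDT against PBS, with an exact 95% interval for counting error of 8.85 to 130, and 8.40 against LateDT, with an interval of 4.99 to 15.1. The annotation lists Cxcl11 as a polymorphic pseudogene, which as background reflects a frameshift in the C57BL/6 strain, so the counts report transcript and not protein. The processed pseudogene Gm2673 on the other strand shares 41.7% of the Cxcl11 exon bases and held 0 counts in each library. Since the use of strand in counting is not given, it is not known whether reads in the shared bases were counted for Cxcl11. The 0 counts of Gm2673 do not settle this. The level of Cxcl11 per kb below was divided by all its exon bases.

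Cxcl16, the ligand of CXCR6, was counted 446 and 291 times in the libraries labelled PBS, 369, 455 and 344 times in EarlyDT, 614, 527 and 538 times in LateDT, and 920, 1236 and 1051 times in FullDT. In CPM every LateDT library was above every PBS and EarlyDT library, and every FullDT library was above those. The log2 fold change was 1.41 (SE 0.14) for FullDT against PBS, with an adjusted p of 5.71e-05, and 0.96 (SE 0.119) against LateDT, with an adjusted p of 0.000269. Zmynd15 on the other strand shares 18.3% of the Cxcl16 exon bases and was itself counted 151 and 59 times in PBS and 266, 412 and 360 times in FullDT, and its part in the Cxcl16 counts was not tested.

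Cxcr3, the receptor of CXCL9, CXCL10 and CXCL11, was counted 11 and 7 times in the libraries labelled PBS, 9, 16 and 3 times in EarlyDT, 12, 6 and 8 times in LateDT, and 81, 82 and 131 times in FullDT. Only FullDT stood apart, and the other groups overlapped one another. The log2 fold change of FullDT was 3.29 (SE 0.403) against PBS, with an adjusted p of 0.000229, and 3.52 (SE 0.345) against LateDT, with an adjusted p of 5.95e-05. In whole skin, fewer cells of a type and less RNA per cell cannot be told apart, nor can more cells and more RNA per cell, and this holds for every gene here.

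Cxcr6, which encodes the receptor of CXCL16, was counted 28 and 16 times in the libraries labelled PBS, 14, 17 and 16 times in EarlyDT, 26, 15 and 23 times in LateDT, and 193, 207 and 301 times in FullDT. FullDT was again the group that stood apart, and LateDT lay within the range of PBS and EarlyDT together. The log2 fold change of FullDT was 3.27 (SE 0.253, adjusted p 1.16e-05) against PBS and 3.49 (SE 0.216, adjusted p 3.78e-06) against LateDT.

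In LateDT against PBS, 0 of the 6 genes passed edgeR at an adjusted p under 0.05, where 1.86% of all genes tested were called higher and 2.69% lower. At an unadjusted p under 0.05 there were 3 (Cxcl9, Cxcl10 and Cxcl16), and DESeq2 called 1, Cxcl9. Cxcl9 had a log2 fold change of 2.12 (SE 0.572, 95% interval 0.86 to 3.38) with an adjusted p of 0.0628, which was 0.012 without LateDT replicate 3, and over 12 alternatives its adjusted p ranged from 9.14e-11 to 0.241. The receptors had estimates on the other side of 0, at -0.23 (95% interval -1.39 to 0.93) for Cxcr3 and -0.22 (interval -0.87 to 0.43) for Cxcr6. Without PBS replicate 1 both signs turned, to 0.029 for Cxcr3 and 0.134 for Cxcr6. The LateDT libraries also differed among themselves in other tissue: 4 skeletal muscle markers, led by Acta1, summed to 2833, 1143 and 3697 CPM in LateDT replicates 1, 2 and 3 and to between 803 and 1827 CPM in the other groups. LateDT replicate 3 also had the lowest sums of fibroblast markers (8358 CPM) and mast cell markers (52.3 CPM). The part of this in the LateDT results was not tested.

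In EarlyDT against PBS, 0 of the 6 genes passed edgeR, with 0 at an unadjusted p under 0.05 and 0 called by DESeq2. In that comparison 0.00544% of all genes tested were called higher, which is 1 gene, Atf3, named after its values were seen, and 0% were called lower. At an unadjusted p under 0.05 there were 872 genes, and DESeq2 called 17. The 95% interval of the log2 fold change was -1.24 to 1.82 for Cxcl9, -0.90 to 0.67 for Cxcl10 and -0.25 to 0.36 for Cxcl16. A change of a few fold in Cxcl9 was thus not excluded at this depth and number of mice.

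Between EarlyDT and LateDT, which differ in age, 3.27% of all genes tested were called higher in EarlyDT and 3.12% lower, and 1 of the 6 genes passed. Cxcl9 was lower in EarlyDT, with a log2 fold change of -1.83 (SE 0.475) and an adjusted p of 0.0459. That call was lost without any 1 of EarlyDT replicates 1, 2 or 3 or LateDT replicates 1 or 2, with adjusted p of 0.108, 0.176, 0.0977, 0.0608 and 0.0609. It was also lost with sex as a covariate (adjusted p 0.0561) and with the libraries of the 2 groups alone (0.103). The estimate was -1.18 without LateDT replicate 2, and over 13 alternatives the adjusted p ranged from 2.35e-11 to 0.176. Cxcl10 had a log2 fold change of -1.09 (SE 0.295) and an adjusted p of 0.0529, which was 0.0222 without LateDT replicate 3.

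**Figure D2:**
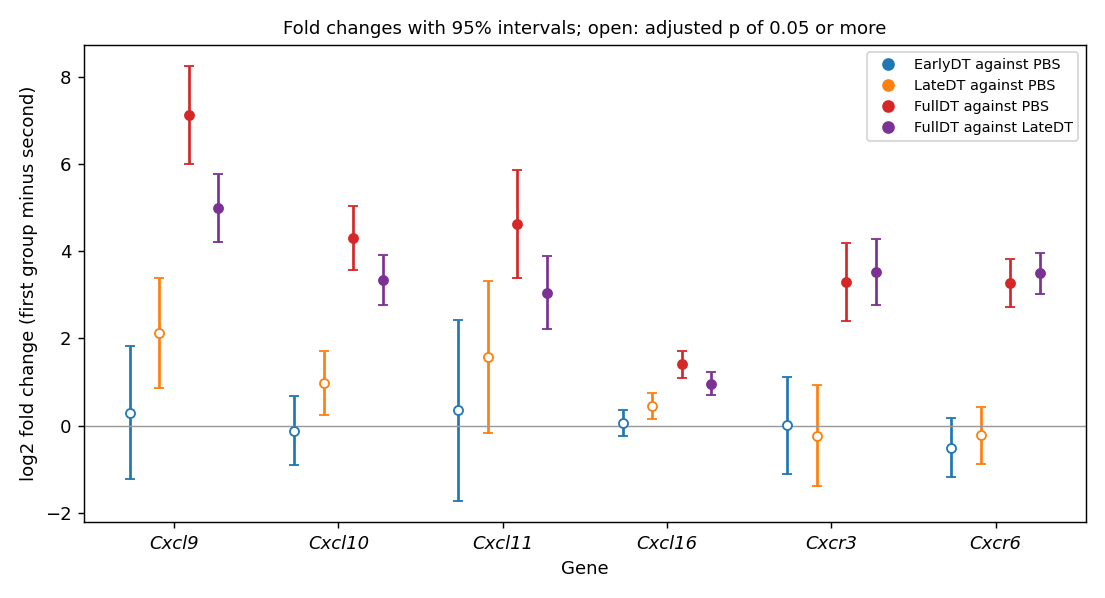
Log2 fold change (vertical axis, first group minus second) of each gene (horizontal axis) in 4 comparisons, with 95% intervals from the edgeR fit. Filled points have an adjusted p under 0.05: 6 genes are filled in FullDT against PBS and against LateDT, of which Cxcl11 passed the filter through FullDT alone, and 0 are filled in EarlyDT or LateDT against PBS.

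Levels of different genes were compared per kb of exon length. In PBS, Cxcl16 was the highest at 4.50 ± 0.943 CPM per kb (SD, n = 2), followed by Cxcl10 at 1.34 ± 0.744, Cxcr6 at 0.42 ± 0.126, Cxcl9 at 0.29 ± 0.0958, Cxcr3 at 0.19 ± 0.0435 and Cxcl11 at 0.015 ± 0.00832 CPM per kb. Cxcr6 and Cxcl9, neighbours in that order, had overlapping ranges. In FullDT the order was Cxcl9 at 41.2 ± 6.93 CPM per kb (n = 3), Cxcl10 at 27.0 ± 5.17, Cxcl16 at 11.99 ± 1.16, Cxcr6 at 4.10 ± 0.834, Cxcr3 at 1.92 ± 0.473 and Cxcl11 at 0.39 ± 0.0797 CPM per kb, with no overlap between neighbours. Cxcl16 also led in EarlyDT and LateDT, with Cxcl10 next, where Cxcl10 and Cxcl9 overlapped in LateDT, and Cxcl9 with Cxcr6 and Cxcr6 with Cxcr3 in EarlyDT.

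The makeup of the CXCR3 ligands also differed. Of the summed level of Cxcl9, Cxcl10 and Cxcl11 per kb, Cxcl9 made up 16.1% and 21.2% in the libraries labelled PBS, 26.6%, 16.7% and 23.7% in EarlyDT, 27.4%, 40.1% and 23.6% in LateDT, and 56.9%, 60.9% and 62.7% in FullDT. Cxcl9 was the larger part in FullDT only, and Cxcl10 in every other library. As a log2 ratio of counts with 0.5 added to each, Cxcl9 to Cxcl10 was 1.04 ± 0.178 in FullDT (SD, n = 3), -0.77 ± 0.563 in LateDT and -1.67 ± 0.372 in PBS (n = 2). FullDT exceeded LateDT by 1.81 and PBS by 2.71, each with p = 0.1 in a two-sided exact permutation test, which is the smallest p that 3 against 3 or 3 against 2 libraries allow. LateDT against PBS differed by 0.90, with p = 0.2 in the same exact test, and by 0.59 without LateDT replicate 2.

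The receptors were also set against Cd3e, a subunit of the T cell receptor complex. The paper's flow cytometry gated gamma-delta T cells of skin as CD3-positive, so Cd3e covers these cells too. Their share of the Cd3e counts was not measured here. Cd3e was counted 76 and 114 times in PBS, 95, 129 and 99 times in EarlyDT, 195, 136 and 176 times in LateDT, and 271, 323 and 342 times in FullDT. The log2 ratio of Cxcr3 to Cd3e was -1.70 ± 0.297 in FullDT, -4.25 ± 0.241 in LateDT (SD, n = 3 each) and -3.33 ± 0.847 in PBS (n = 2). FullDT exceeded LateDT by 2.55 and PBS by 1.64 in this ratio, with p = 0.1 in each exact permutation test. The difference from PBS was 2.24 without PBS replicate 1 and 1.04 without PBS replicate 2. The log2 ratio of Cxcr6 to Cd3e was -0.44 ± 0.233 in FullDT, -2.98 ± 0.141 in LateDT and -2.11 ± 0.969 in PBS. FullDT exceeded LateDT by 2.54 and PBS by 1.67 in it, with p = 0.1 in each exact permutation test. For Cxcr6 the difference from PBS was 2.36 without PBS replicate 1 and 0.99 without PBS replicate 2. With the summed counts of Cd3d, Cd3e and Cd3g the differences from PBS were 1.72 for Cxcr3 and 1.76 for Cxcr6, and with those of the 14 T cell markers, a choice made after seeing the data, 1.37 and 1.41. Of the 14, 3 (Cd8a, Cd8b1 and Trac, named after their values were seen) had larger log2 fold changes than either receptor in FullDT against PBS and against LateDT. These 3 passed the filter through FullDT alone, so their level in FullDT decided that they were tested, and no conclusion is drawn from them. Trac, the constant region of the T cell receptor alpha chain, was counted 3 and 5 times in PBS, 9, 7 and 2 times in LateDT, and 130, 138 and 158 times in FullDT. With Trac in place of Cd3e, also chosen after its values were seen, FullDT differed from PBS by -1.65 for Cxcr3 and -1.61 for Cxcr6. Because of its filter and its low counts in PBS, Trac cannot decide the sign. The differences above hold for the denominators named, and receptor level per T cell was not measured. For LateDT against PBS the log2 ratios to Cd3e differed by -0.91 for Cxcr3 and -0.87 for Cxcr6, with p = 0.1 in each exact permutation test. These values rest on PBS libraries that lay far apart, and were -0.31 and -0.18 without PBS replicate 1 and -1.51 and -1.55 without PBS replicate 2.

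**Figure D3:**
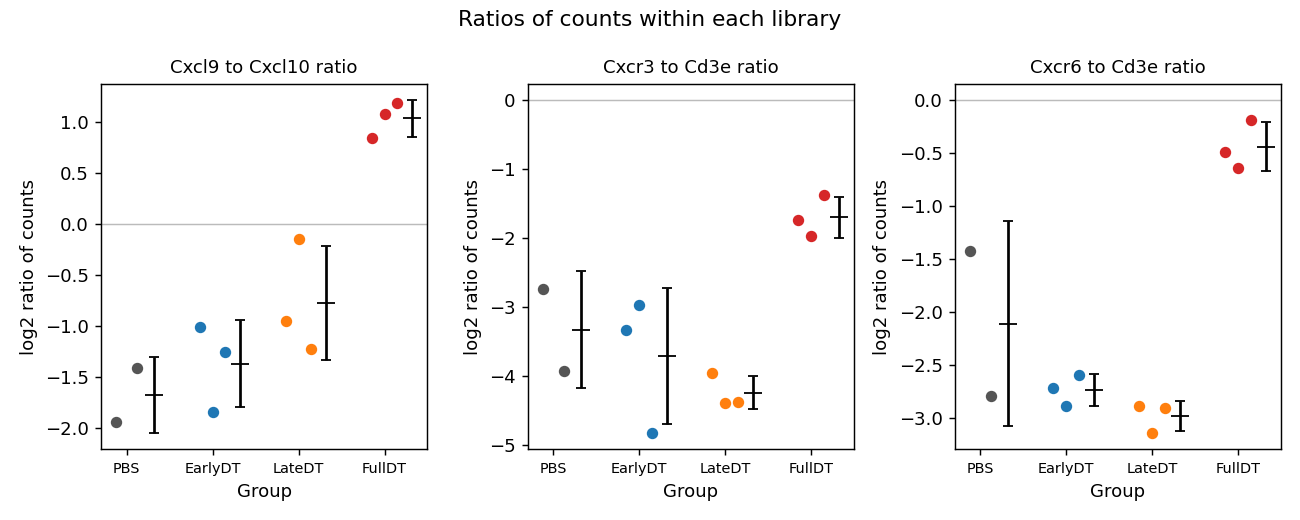
Log2 ratio of counts (vertical axes, 0.5 added to each count) of Cxcl9 to Cxcl10, Cxcr3 to Cd3e and Cxcr6 to Cd3e in each of the 11 libraries by group (horizontal axes). Points are mice, bars with whiskers are mean ± SD, and the FullDT libraries lie above all others in the 3 panels.

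Genes with the most similar pattern over the 11 libraries were sought by the root mean square difference of centred log2 CPM among 15682 genes. Serpina3f (0.372), Ubd (0.505) and Ms4a4b (0.643) were nearest to Cxcl9, where the median over all those genes was 2.91. Serpina3g (0.23), Batf2 (0.308) and Col6a5 (0.362) were nearest to Cxcl10, and Duoxa2 (0.406), Casp4 (0.41) and Themis (0.436) to Cxcl11. Serpina3f showed the same high libraries as Cxcl9, with counts of 13 and 5 in PBS, 23, 50 and 10 in LateDT, and 592, 917 and 724 in FullDT. For Cxcl16 the nearest were Jak3 (0.0972), Clec2d (0.106) and Plcg2 (0.118), for Cxcr3 they were Cd4 (0.316), Mgl2 (0.346) and Fcgr2b (0.4), and for Cxcr6 they were Hsd11b1 (0.223), Il18rap (0.367) and Sectm1a (0.374).

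Of the cytokines that induce these ligands, 5 of 11 passed the filter, Ifng through FullDT alone, and of the other 4, 3 were called higher in FullDT than in PBS and 0 lower, with a median log2 fold change of 0.86. Ifng, the main inducer of Cxcl9, was counted 3 and 0 times in the libraries labelled PBS, 3, 0 and 0 times in EarlyDT, 1, 4 and 0 times in LateDT, and 54, 82 and 57 times in FullDT. Outside FullDT, Ifng was thus at 4 counts or fewer. The log2 fold change of FullDT against PBS was 1.72 (SE 0.346) for Il1b, 0.91 (SE 0.195) for Il15 and 0.81 (SE 0.254) for Tnf, with adjusted p of 0.00501, 0.00708 and 0.0427. The Il1b call was lost without PBS replicate 2 (adjusted p 0.0641), the Il15 call without PBS replicate 1 (0.0617), and the Tnf call without PBS replicates 1 or 2 (0.0931 and 0.227) or FullDT replicates 1 or 2 (0.126 and 0.0722). Tnf was also not called by DESeq2 (adjusted p 0.1), with the libraries of the 2 groups alone (0.0625) or with sex as a covariate (0.0531). Ifnb1, Ifnl2 and Ifnl3 were at or under 3 counts in every library.

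Receptors and signalling genes upstream of the ligands were called higher in FullDT than in PBS in 19 of 21 cases, and in 19 of 21 against LateDT, with median log2 fold changes of 0.76 and 0.69. Irf1, an interferon-induced transcription factor, stood at 13.6 and 10.9 CPM in the libraries labelled PBS, at 15.01, 15.6 and 19.1 CPM in EarlyDT, at 22.3, 37.0 and 19.5 CPM in LateDT, and at 137, 144.7 and 109.9 CPM in FullDT. EarlyDT and LateDT both lay between PBS and FullDT without overlap. In EarlyDT against PBS, however, Irf1 was not called, and 0 of the 21 genes were, where 0.00544% of all genes tested were called higher. Irf1 was called in LateDT against PBS at 1.09 (SE 0.252, adjusted p 0.0365) and in FullDT against PBS at 3.41 (SE 0.267, adjusted p 1.24e-05). In LateDT against PBS the Irf1 call was lost without PBS replicates 1 or 2 (adjusted p 0.109 and 0.191). In FullDT against PBS the log2 fold change was 2.12 (SE 0.171) for Stat2 and 0.91 (SE 0.0715) for Nfkb2, with adjusted p of 1.41e-05 and 1.24e-05.

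Of 7 enzymes and atypical receptors that process or take up chemokines, 4 were called higher in FullDT than in PBS and 0 lower, with a median log2 fold change of 0.31. Adam17, which releases CXCL16, was higher by 0.31 (SE 0.0568, adjusted p 0.00296). The scavenging receptors Ackr2, Ackr1 and Ackr3 were higher by 1.88, 1.58 and 0.91, with SE of 0.259, 0.245 and 0.163. Against LateDT of the same age, 3 of the 7 were called higher in FullDT and 1 lower, with a median of 0.27. Ackr1 was also called in LateDT against PBS, at 1.04 (SE 0.247, adjusted p 0.0393), a call lost without PBS replicates 1 or 2 (adjusted p 0.113 and 0.192) or LateDT replicates 1 or 2 (0.0793 and 0.0751).

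Among other CXC, CX3C and XC ligands, 9 were tested, Cxcl3 and Cxcl5 through FullDT alone, and of the other 7, 4 were called higher in FullDT than in PBS, with a median log2 fold change of 0.40. Cxcl5 and Cxcl3, which attract neutrophils through CXCR2, were counted 103, 79 and 38 times and 25, 26 and 23 times in FullDT. In PBS they were counted 3 and 1 times and 0 and 0 times, so that Cxcl3 was at least 14.8-fold higher, with 3 counts over the PBS group as the floor. Xcl1 and Cxcl1 were higher by 1.23 (SE 0.237) and 2.43 (SE 0.531), and the Cxcl1 estimate was 3.74 without PBS replicate 1 and 1.80 without PBS replicate 2, where the call was lost (adjusted p 0.0803). Each library held 3 counts of Cxcl15 or fewer. Of the 5 other receptors tested, 1, Cxcr2, was called in FullDT against PBS, at 1.73 (SE 0.35, adjusted p 0.00512, or 0.0607 without PBS replicate 2), while estimates were 0.70 (95% interval 0.02 to 1.39) for Cx3cr1, which was called with no filter beyond 1 count (adjusted p 0.0174), -0.15 for Cxcr5 and -0.01 for Cxcr4. Each library held 3 counts of Cxcr1 or fewer as well.

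Of 12 type 1 lymphocyte genes, Gzmb, Tbx21 and Eomes passed the filter through FullDT alone. Of the other 9, 7 were called higher in FullDT than in PBS and 8 against LateDT, with median log2 fold changes of 3.03 and 2.45. Gzmb, which encodes a cytotoxic granule protease, was counted 3 and 0 times in PBS, 3, 4 and 1 times in LateDT, and 593, 901 and 820 times in FullDT. Tbx21, the T-box factor that activates Cxcr3 in T cells, was counted 1 and 1 times in PBS, 3, 2 and 1 times in EarlyDT, 11, 7 and 5 times in LateDT, and 48, 59 and 59 times in FullDT. The level of Tbx21 thus lay higher in LateDT than in PBS or EarlyDT without overlap, and it was called in LateDT against PBS with an adjusted p of 0.034, although it reached the filter level of 0.344 CPM in FullDT libraries alone and DESeq2 gave it no adjusted p in LateDT against PBS. The Tbx21 call was lost without PBS replicates 1 or 2 (adjusted p 0.182 and 0.131) or LateDT replicates 1 or 2 (0.0869 and 0.06). Prf1 and Il12rb1 were higher in FullDT than in PBS by 2.87 (SE 0.219) and 3.28 (SE 0.229). Of the 5 tissue residency genes tested, 3 were called higher in FullDT than in PBS and 1 lower: Itgae, Rgs1 and Cd69 were higher by 1.30, 3.32 and 2.91, and Itga1 fell by 0.32 (SE 0.087, adjusted p 0.0224, or 0.149 without PBS replicate 2 and 0.0777 without FullDT replicate 2). Against LateDT of the same age 4 of the 5 were called higher and 0 lower, and Itga1 was higher in FullDT by 0.30 (SE 0.079, adjusted p 0.0243), a call lost without LateDT replicates 2 or 3 (adjusted p 0.0872 and 0.0618) or FullDT replicates 1 or 3 (0.0931 and 0.0768). Itga1 was lower in LateDT than in PBS, at -0.62 (SE 0.0871, adjusted p 0.00308).

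Markers of T cells and NK cells were also higher in FullDT. Of 14 T cell markers, 3 (Cd8a, Cd8b1 and Trac) passed the filter through FullDT alone, and 10 of the other 11 were called higher in FullDT than in PBS, with a median log2 fold change of 1.85. The summed level of the 14 was 24.2 and 27.2 CPM in PBS, 23.1, 25.6 and 25.6 CPM in EarlyDT, 31.3, 29.8 and 25.8 CPM in LateDT, and 101, 78.7 and 102 CPM in FullDT, with Cd3g the most abundant. Of 7 NK cell markers, Ncr1, Klrb1c and Klrc1 passed through FullDT alone, and the other 4 were called higher, with a median of 2.61. The 7 summed to 6.44 and 5.86 CPM in PBS, 4.77, 5.88 and 6.08 CPM in EarlyDT, 8.08, 8.86 and 7.08 CPM in LateDT, and 40.8, 29.2 and 38.8 CPM in FullDT, with Il2rb the most abundant. No T cell or NK cell marker was at or under 3 counts in every library. FullDT replicate 2, the lowest FullDT library for both marker sums, was also the lowest in CPM for Cxcr3 and Cxcr6. The part of T cells and NK cells in the receptor counts was not tested.

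Of 10 macrophage and monocyte markers, 4 were called higher in FullDT than in PBS and 6 against LateDT, with medians of 1.31 and 1.52. Their sum was 221 and 158 CPM in PBS, 161, 177 and 115 CPM in EarlyDT, 144.7, 223 and 89.5 CPM in LateDT, and 524, 381 and 482 CPM in FullDT, with Mrc1 the most abundant. LateDT overlapped PBS in this sum. LateDT replicate 2 had the highest macrophage sum and the highest Cxcl9 and Cxcl10 in CPM of its group, whereas FullDT replicate 2 had the lowest sum and the highest Cxcl9, Cxcl10 and Cxcl11 of its own. The part of these cells in the ligand counts was not tested. Of 4 neutrophil markers that passed the filter, Ngp did so through FullDT alone, and the other 3 were called higher in FullDT than in PBS, while Ly6g and Mpo had 3 counts or fewer in each library. Of 6 Treg markers, Foxp3 among them, Icos passed through FullDT alone, and 3 of the other 5 were called higher in FullDT than in PBS, with a median of 0.94. Foxp3 itself was not called and had an estimate below 0, at -0.31 (SE 0.314, adjusted p 0.546). The sum of the 6 was 17.8 and 15.9 CPM in PBS and 39.8, 37.0 and 33.9 CPM in FullDT. Tnfrsf18 was the most abundant, at 9.56 and 9.60 CPM in PBS and 19.7, 19.5 and 16.4 CPM in FullDT. The sum thus does not stand for the level of Foxp3.

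Of the remaining cell type lists, FullDT against PBS gave 2 higher and 1 lower of 7 dendritic cell markers (Ccr7 passed through FullDT alone), 1 higher of 4 gamma-delta T cell markers tested, and 2 higher and 2 lower of 6 endothelial cell markers. It gave 2 higher and 2 lower of 7 keratinocyte markers, 0 higher and 3 lower of 6 fibroblast markers, and 1 higher of 4 skeletal muscle markers. With edgeR it gave 0 of 4 mast cell markers, 0 of 4 adipocyte markers and 0 of the 1 B cell marker tested, with 0 at an unadjusted p under 0.05 in each, while DESeq2 called 1, 2 and 0. In FullDT against LateDT the same lists gave 2 higher and 1 lower of 7 dendritic cell markers, 1 higher of 4 gamma-delta T cell markers, 1 higher and 3 lower of 6 endothelial cell markers, 0 higher and 1 lower of 7 keratinocyte markers and 1 higher and 0 lower of 6 fibroblast markers. In that comparison 1 of 4 adipocyte markers, Adipoq, was called lower, with a median log2 fold change of -1.85, 4 at an unadjusted p under 0.05 and 4 called by DESeq2, and 1 of 4 skeletal muscle markers, Myh4, was called lower, with a median of -0.82; both were named after their values were seen. The adipocyte call was lost without any 1 of these 6 libraries but LateDT replicate 3, and the muscle call without FullDT replicates 1 or 2 and with DESeq2, each leaving 0 of 4. Il17a and Il17f among the gamma-delta T cell genes, and Ms4a1 and Jchain among the B cell and plasma cell genes, were at or under 3 counts in every library.

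Cxcl9, Cxcl10 and Cxcl11 lie side by side on the minus strand of chromosome 5 within 44139 bases (GRCm38, chr5:92321347-92365485), and Cxcl16 lies on chromosome 11 (chr11:70453983-70459984), Cxcr3 on chromosome X (chrX:101731535-101734269) and Cxcr6 on chromosome 9 (chr9:123806475-123811760). RefSeq promoters (GRCm38.p6, 250 bases before to 50 after the gene start) matched 4 of the 6 genes. They were searched on both strands for the interferon-stimulated response element core TTCNNTTTC, the gamma-activated site TTCNNNGAA, the NF-κB decamer and the TATA box TATAAA, which were held by 8.56%, 8.3%, 8.46% and 13.6% of 32851 promoters of that length. The promoters of Cxcl9 (chr5:92328030-92328329, minus strand) and Cxcl10 (chr5:92348840-92349139, minus strand) are shown because these neighbouring ligands were both called in FullDT and each holds the response element core, with matched motifs in capitals.
Cxcl9: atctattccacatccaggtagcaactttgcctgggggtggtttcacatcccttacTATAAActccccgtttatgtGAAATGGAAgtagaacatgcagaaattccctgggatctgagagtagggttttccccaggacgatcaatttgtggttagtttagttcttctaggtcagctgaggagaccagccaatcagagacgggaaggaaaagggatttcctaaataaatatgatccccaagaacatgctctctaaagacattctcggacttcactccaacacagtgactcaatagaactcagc
Cxcl10: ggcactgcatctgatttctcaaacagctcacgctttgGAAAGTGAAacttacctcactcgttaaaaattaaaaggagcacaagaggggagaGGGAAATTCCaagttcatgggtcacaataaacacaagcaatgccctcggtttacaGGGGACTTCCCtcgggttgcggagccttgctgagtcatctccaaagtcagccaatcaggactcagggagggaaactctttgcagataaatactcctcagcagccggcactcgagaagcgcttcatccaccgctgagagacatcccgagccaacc

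In Cxcl9 the capitals are, in order, the TATA box letters and the response element core on the other strand. In Cxcl10 they are the response element core on the other strand and NF-κB decamers, which overlap one another in the last run. The Cxcr3 and Cxcr6 promoters held none of the 4 motifs in this window. A match is a description of letters and was not tested as a site.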

How the data were processed

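The authors deposited raw counts per gene, unnormalized, for 11 skin libraries; per the labels, reads were trimmed with Trimmomatic 0.36, aligned with STAR 2.5.2b to GRCm38 and counted with featureCounts of Subread 1.5.2. Groups came from the labels. edgeR 4.0.16 in R 4.3.3 was fitted to all 11 libraries with a mean per group (filterByExpr by group, TMM scaling, quasi-likelihood test), with DESeq2 1.42.0, other scalings, filters, sex and leaving out each mouse as alternatives. The paper states that the sex of each mouse was not recorded, and sex was read here from Xist and Ddx3y counts. PBS replicate 1 read as female and replicate 2 as male, so leaving out either also left controls of 1 sex. CPM used TMM-scaled totals. Replicate pairs differed by more than counting noise, with a median chi-square per gene of 1.01 to 3.55 against 0.455. Intervals on counts cover counting error only. Of 179 list genes 176 were matched; Znf683, Trgc1 and Trgc2 were not. Named genes are the 6 members, Foxp3, up to 4 genes per pathway list by the smallest p in FullDT against PBS, and the 3 nearest in pattern to each member. A gene that this rule names is not reported here. Members and lists were chosen with earlier results of these data known. The steps were tested on simulated data.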

Additional observations from a re-analysis of the deposited data

How the results depend on the processing

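For FullDT against PBS, LateDT and EarlyDT, the 5 genes other than Cxcl11, which passed the filter through FullDT alone, kept their direction and their call in all 59, 64 and 64 pairs of a gene and an alternative, so that these calls did not rest on 1 library. Without any 1 library the genes called over the whole table ran from 2026 to 3493 in FullDT against PBS and from 1987 to 2942 in FullDT against LateDT. With denominators chosen after seeing the data, the differences in the ratios of Cxcr3 and Cxcr6 were -1.65 and -1.61 for FullDT against PBS and -1.22 and -1.23 against LateDT with Trac in place of Cd3e, and 1.79 and 1.78 against LateDT with the summed T cell list. Trac passed the filter through FullDT alone, so its values decide no sign. A group of 2 or 3 mice, and counts of 16 or fewer for Cxcl11 and Cxcr3 outside FullDT, limit what the other comparisons can detect. No paired analysis was possible because the labels give the groups no shared replicate numbers. Where a PBS library was left out, the other was assumed to vary like the other groups.

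In LateDT against PBS, Cxcl9 was called by DESeq2 (log2 fold change 2.18, adjusted p 0.00821), so that 1 of the 6 genes passed, and with no filter beyond 1 count 3 passed, Cxcl9 (2.12), Cxcl10 (0.98) and Cxcl16 (0.45). Leaving out each library gave 0 to 1 of the 6 genes, with Cxcl9 from 1.48 to 2.52, Cxcr3 from -0.45 to 0.029 and Cxcr6 from -0.48 to 0.13. Of all genes tested, 836 were called, against 154 with the 2 groups alone, 1790 with no filter and 292 to 903 without a library. The cause was not tested.

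Between EarlyDT and LateDT, 3 of the 6 genes passed with DESeq2 and 3 with no filter, adding Cxcl10 (-1.09 and -1.08) and Cxcl16 (-0.38 and -0.38) to Cxcl9. With the 2 groups alone 4 of the 6 were tested and 0 passed, with Cxcl9 at -1.84. With sex as a covariate Cxcl9 was at -1.62 and not called, and Cxcl10 at -0.89 and called. Leaving out each library gave 0 to 2 of the 6 genes, with Cxcl9 from -2.18 to -1.18, Cxcl10 from -1.29 to -0.87 and Cxcr3 from -0.31 to 0.56. Of all genes tested, 1173 were called, against 540 with the 2 groups alone, 2173 with no filter and 353 to 1172 without a library.

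In EarlyDT against PBS the sign changed for Cxcl10, Cxcl11, Cxcr3 and Cxcl16, which were not called. Their main estimates were -0.117, 0.346, 0.005 and 0.056. Cxcl10 was at 0.021 with sex as a covariate, and Cxcr3 at -0.023 with DESeq2 and -0.035 with sex as a covariate. Leaving out each library gave -0.58 to 0.62 for Cxcl10, -0.50 to 0.96 for Cxcl11, -0.54 to 0.33 for Cxcr3 and -0.14 to 0.29 for Cxcl16. Genes called over the whole table numbered 17 with DESeq2, 54 with no filter, 0 with the 2 groups alone, with at least 10 counts in every library or with sex as a covariate, and 0 to 7 without a library. In FullDT against PBS, Cxcr4 was at 0.004 with at least 10 counts in every library and from -0.037 to 0.014 without a library. Of other genes in that comparison, Tnf was not called by DESeq2, with the 2 groups alone or with sex as a covariate, and Itga1 was not called with library size only, while Cx3cr1 was called with no filter beyond 1 count (0.70, adjusted p 0.0174). Itga1 was not called with library size only in FullDT against LateDT either. In LateDT against PBS, Irf1 and Ackr1 were not called with the 2 groups alone, nor Ackr1 by DESeq2.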
